A study of Mus musculus with 64 samples.

Results

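The genes followed here move calcium through the heartbeat of the cardiomyocyte: Atp2a2, Pln, Hrc, Ryr2, Casq2, Trdn, Cacna1c, Cacnb2 and Slc8a1. They were chosen by name, and all 9 were found by Ensembl gene ID among the 48795 gene rows of the count table, of which 34741 held a count in some library. RNA came from biventricular heart of male C57BL/6 mice that were either cardiomyocyte-specific knockouts of E4BP4 (CEK) or littermates that served as controls (CON). E4BP4 is the product of Nfil3 and represses transcription; its level is known to follow the time of day. Hearts were taken every 3 h at 8 zeitgeber times (ZT, hours after lights on) from ZT0 to ZT21, with 4 biological replicates per genotype and time, so 32 libraries per genotype and 64 in all. Age and Cre driver are not stated in the labels used here. All mice of both groups share sex and strain.

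A heartbeat starts when the L-type calcium channel of the cell membrane opens and lets in a small amount of calcium. That calcium opens the ryanodine receptor of the sarcoplasmic reticulum, which releases the larger store that drives contraction. Relaxation follows as the SERCA pump returns calcium to the store, under the brake of phospholamban, and as the sodium-calcium exchanger moves the rest out of the cell.

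Libraries held between 7.71 M and 45.6 M counts on genes (median 26.7 M), and each of the 9 genes had at least 54 counts in every library. Levels are given in CPM, counts divided by the library size after TMM scaling. On the first principal component of all genes 3 libraries lay far from the rest, namely replicate 4 of CEK at ZT0 and, at ZT18, replicate 1 of CEK and replicate 3 of CON. Results that turn on them are given with and without them, the latter as values over 61 libraries. Nfil3, the targeted gene, was lower in all 4 CEK than in all 4 CON libraries at 8 of 8 times, with a range of 0.506 to 4.75 CPM in CEK and 4.90 to 31.8 CPM in CON. The 12 markers of cardiomyocytes had a mean log2 CPM of 12.2 ± 0.174 in CON (SD, n = 32) and 12.1 ± 0.190 in CEK (SD, n = 32). Markers of atrial cardiomyocytes were present as well, and their mean log2 CPM ran from 3.46 to 8.60 over the libraries.

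Per kilobase of exon, Atp2a2 and Pln stood far above the other 7 genes. Atp2a2 encodes SERCA2, the calcium pump of the sarcoplasmic reticulum, and had 2378 ± 322 CPM per kb in CON (SD, n = 32). Pln encodes phospholamban, the small membrane protein that inhibits this pump, and had 2253 ± 164 CPM per kb. The pair did not separate: Atp2a2 was above Pln in 21 of 32 CON libraries. Hrc, which encodes the histidine-rich calcium binding protein of the sarcoplasmic reticulum, had 476 ± 43.7 CPM per kb. Casq2 encodes cardiac calsequestrin, the calcium buffer of the store, and had 333 ± 30.6 CPM per kb, below Hrc in 32 of 32 CON libraries.

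The genes of the release channel itself and of the cell membrane were lower. Trdn encodes triadin, which anchors calsequestrin to the release channel, and had 44.1 ± 13.3 CPM per kb in CON (SD, n = 32). Ryr2, the ryanodine receptor, had 37.1 ± 6.63 CPM per kb, and this pair also did not separate, since Trdn was above Ryr2 in 20 of 32 CON libraries. Cacna1c, the pore-forming subunit of the L-type channel, followed with 11.3 ± 2.66 CPM per kb. Cacnb2, a beta subunit that brings this channel to the membrane, had 4.90 ± 0.658 CPM per kb and was above the last gene in 27 of 32 CON libraries. That gene was Slc8a1, the sodium-calcium exchanger NCX1, with 3.08 ± 1.76 CPM per kb. The annotated exon lengths that divide these values come from GENCODE M21 and run from 2566 bases (Hrc) to 28790 bases (Ryr2), and the share of each transcript in the heart was not measured. Within groups, Ryr2, Cacna1c, Cacnb2 and Slc8a1 rose with a balance of long and short transcripts in the library, described below. Pearson's r ran from 0.813 (Cacnb2) to 0.967 (Slc8a1) over 61 libraries. The CON libraries with Slc8a1 above Cacnb2 had the highest values of that balance, and its part in the order of genes was not tested. In GRCm38 the genes lie at chr5:122453513-122502225 (Atp2a2), chr10:53337667-53345987 (Pln), chr7:45335290-45338974 (Hrc), chr3:102086415-102146514 (Casq2) and chr10:33080554-33476709 (Trdn). The other 4 lie at chr13:11553102-12106945 (Ryr2), chr6:118587240-119196418 (Cacna1c), chr2:14603088-14987908 (Cacnb2) and chr17:81373105-81738377 (Slc8a1).

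**Figure D1:**
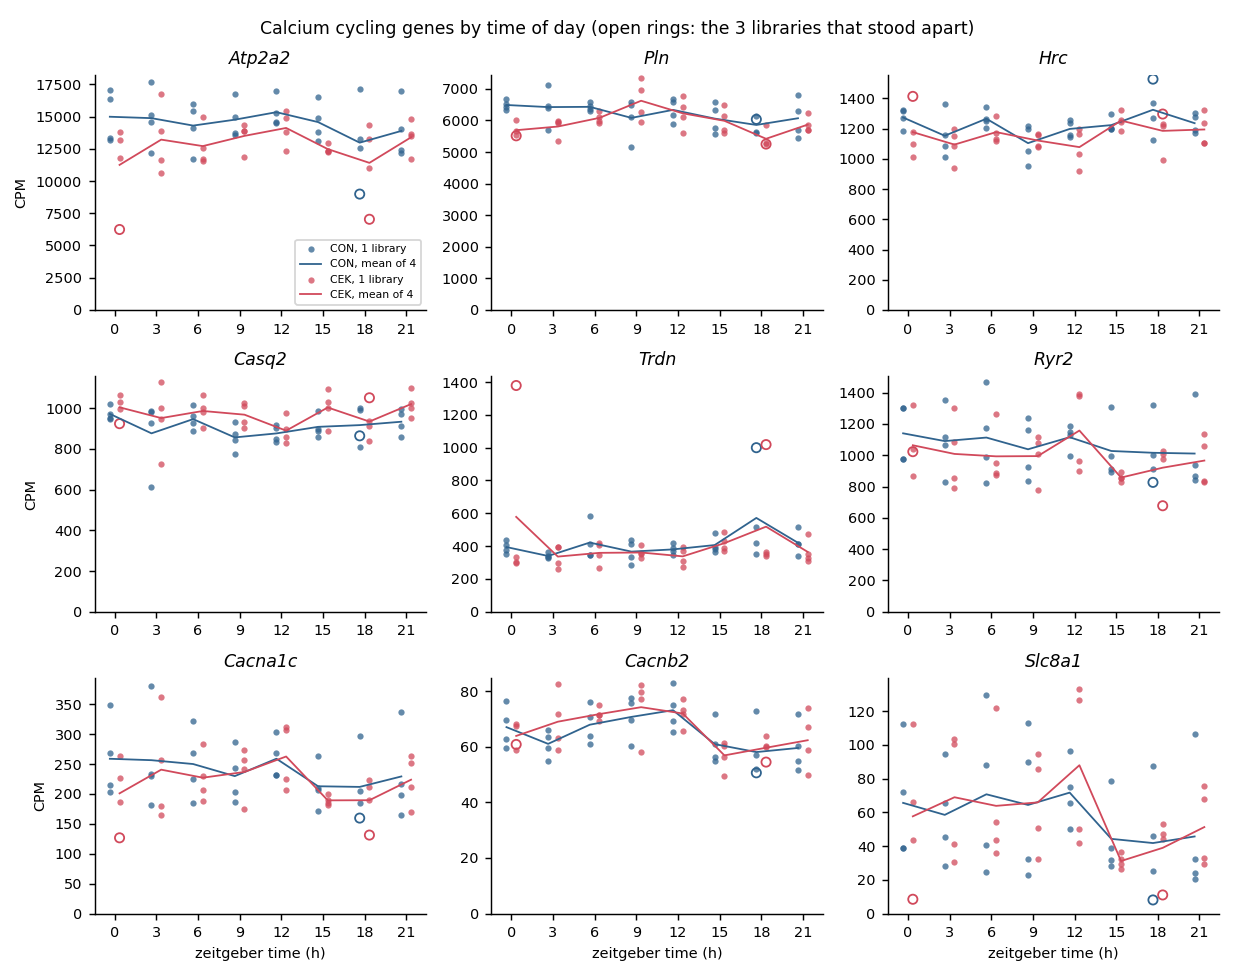
CPM of each gene (vertical axes, each starting at 0) against zeitgeber time in hours (horizontal axes). Dots are single libraries of CON (blue) and CEK (red), lines join the means of 4 libraries, and open rings mark the 3 libraries that stood apart, where Trdn was between 1000 and 1379 CPM and Slc8a1 between 8.06 and 11 CPM.

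The genotypes were compared first on average over the day. Atp2a2 was the only 1 of the 9 to pass the test: it fell by 0.18 ± 0.061 (log2, SE), or by 11.9%, in CEK (edgeR quasi-likelihood test, adjusted p = 0.0399, 32 against 32 libraries), with a lower mean at 8 of 8 times. In the same comparison 1968 of 16417 tested genes were called, which is 12% of all, with 6.69% higher and 5.30% lower. One of 9 is therefore near the background. The median log2 fold change of the 9 genes was -0.062 against -0.00072 over all tested genes, and their median size without sign was 0.075 against 0.071.

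Atp2a2 ranged from 8988 to 17689 CPM in CON with a median of 14540 CPM, and from 6241 to 16779 CPM in CEK with a median of 13058 CPM. The genotypes overlapped widely. Over 61 libraries the fold change was -0.16 ± 0.045 (log2, SE) with an adjusted p of 0.0131 by edgeR. The call had little margin: leaving out 1 library at a time gave fold changes between -0.20 and -0.16, and ended the call in 18 of 64 such fits, and without a filter on low counts the adjusted p was 0.106.

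In whole tissue, fewer cells of a type and less RNA per cell cannot be told apart. Beside Atp2a2, 1 of 12 cardiomyocyte markers was higher and 2 were lower in CEK, and their score did not pass (log2 difference -0.065, permutation test within times, p = 0.152, adjusted p = 0.315). Over 61 libraries the difference of this score was -0.082 (log2, permutation test within times, p = 0.024, adjusted p = 0.0782). Its part in the lower Atp2a2 was not tested. Of 8 macrophage markers 7 were higher in CEK (median log2 fold change 0.27), and their mean log2 CPM ran from 4.44 to 5.57 in CON and from 4.69 to 5.85 in CEK. Of 8 endothelial markers 1 was lower, and their mean log2 CPM ran from 6.43 to 6.87 in CON and from 6.40 to 6.76 in CEK. These were the 2 of 13 library measures that differed between genotypes (permutation test within times, p = 2e-05 and 6e-05, adjusted p = 0.00026 and 0.00039), and their part in the result was not tested.

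Casq2 was higher and Pln lower on average in CEK, and both missed the adjusted threshold. Casq2 ran from 612 to 1021 CPM in CON with a median of 922 CPM, and from 725 to 1131 CPM in CEK with a median of 989 CPM, so the genotypes overlapped. Its log2 fold change was 0.090 ± 0.036 (SE, edgeR adjusted p = 0.0984), with a higher CEK mean at 8 of 8 times. Pln ran from 5143 to 7136 CPM in CON with a median of 6330 CPM, and from 5251 to 7343 CPM in CEK with a median of 5936 CPM. It overlapped as well, with a log2 fold change of -0.062 ± 0.028 (SE, edgeR adjusted p = 0.156).

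The other 6 genes missed the adjusted threshold too. As for Casq2 and Pln, the unadjusted 95% interval of Hrc left out 0. Hrc had 1222 ± 112 CPM in CON and 1160 ± 112 CPM in CEK (SD, n = 32 each), a log2 fold change of -0.075 ± 0.034 (SE, edgeR adjusted p = 0.164). Ryr2 had 1069 ± 191 CPM in CON and 995 ± 182 CPM in CEK, and Cacna1c 238 ± 56.5 and 221 ± 52.3 CPM (SD, n = 32 each). Their log2 fold changes were -0.11 ± 0.066 and -0.11 ± 0.083 (SE). Cacnb2 had 64.8 ± 8.71 CPM in CON and 66.2 ± 8.91 CPM in CEK (SD, n = 32 each), a log2 fold change of 0.029 ± 0.042 (SE). Trdn and Slc8a1 were the least certain, with 95% intervals from -0.24 to 0.19 and from -0.46 to 0.40. Those intervals allow differences larger than that of Atp2a2, so an absence of change was not shown.

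**Figure D2:**
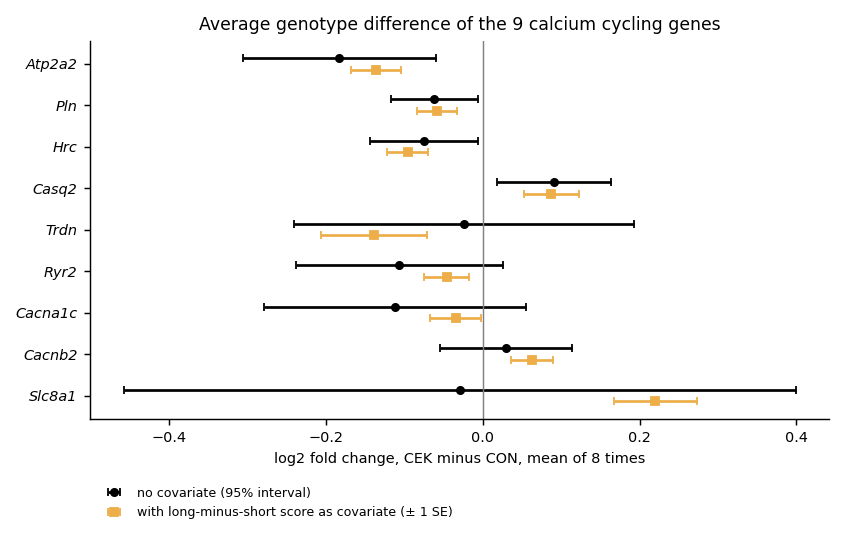
Log2 fold change of CEK minus CON averaged over 8 times (horizontal axis) for each gene (vertical axis). Black circles with 95% intervals, not adjusted for the number of genes, come from the fit without a covariate, where only the adjusted p of Atp2a2 passed 0.05; yellow squares with ± 1 SE come from the fit that also holds the long-minus-short score of each library, where Slc8a1 moved to 0.22.

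Phospholamban slows the pump by binding to it, and the ratio of their transcripts was computed in each library. The ratio of Pln to Atp2a2 in CPM per kb was 0.964 ± 0.148 in CON and 1.06 ± 0.227 in CEK (SD, n = 32 each). Over 61 libraries it was 0.947 ± 0.115 in CON (SD, n = 31) and 1.01 ± 0.118 in CEK (SD, n = 30). In both cases the difference of the means was smaller than 1 SD between libraries, which does not measure how certain that difference is. The ratio is given as a description without a test. Its highest value was 1.48 in CON and 1.95 in CEK, and 1.22 and 1.24 over 61 libraries. Atp2a2 followed the long-minus-short score described below (r = 0.864) and Pln did not pass (r = 0.136). The part of the score in the ratio was not tested.

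At single times none of the 72 tests of a gene at a time passed the threshold (edgeR, smallest adjusted p = 0.256). Of these, 2 had an unadjusted p under 0.05, Atp2a2 and Pln, both at ZT0, and DESeq2 and limma with voom also called none. Over 61 libraries 3 had an unadjusted p under 0.05, namely Pln, Hrc and Trdn at ZT0, and none passed (edgeR, smallest adjusted p = 0.436). The log2 fold change of Trdn at ZT0 changed sign, from 0.55 ± 0.31 to -0.35 ± 0.17 (SE) over 61 libraries. Of all tested genes, edgeR called 1.24% at ZT0, 0.700% at ZT3, 0.189% at ZT6, 0.341% at ZT9, 0.11% at ZT12 and at ZT15, 0.201% at ZT18 and 0.146% at ZT21. In 4 of the 72 cases all 4 CEK libraries lay below all 4 CON libraries, and in 0 cases above. Over all gene-time pairs the shares were 1.77% below and 2.21% above.

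Those 4 cases were Pln at ZT0 and ZT6, and Atp2a2 and Ryr2 at ZT15. Pln at ZT6 was a near tie, with a lowest CON library of 6313.8 CPM and a highest CEK library of 6313.1 CPM. So was Ryr2 at ZT15, with 890.7 CPM in CON and 890.4 CPM in CEK. Pln at ZT0 had 6413, 6333, 6691 and 6517 CPM in CON and 5548, 6027, 5674 and 5512 CPM in CEK. The lowest control heart thus lay above the highest knockout heart, and the log2 fold change was -0.19 ± 0.079 (SE, edgeR adjusted p = 0.256). Over 61 libraries it was -0.18 ± 0.085 (SE, edgeR adjusted p = 0.498).

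Atp2a2 at ZT15 had 16508, 13075, 14887 and 13824 CPM in CON and 12943, 12363, 12358 and 12251 CPM in CEK. The CEK libraries were close together and all below CON, but the log2 fold change of -0.22 ± 0.17 (SE) had an edgeR adjusted p of 0.979. At ZT0 its log2 fold change of -0.41 ± 0.17 (SE) became -0.22 ± 0.13 over 61 libraries. For none of the 9 genes was the genotype difference shown to change with time. The interaction had an adjusted p of 1 for all 9 and an unadjusted p under 0.05 for 0 of them. Of all tested genes edgeR called 0.00609%. An absence of such a change was not shown.

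The 24-h rhythm of the 9 genes was tested next. Rhythm was tested by a cosine and a sine term in each genotype, and the amplitude is the distance from the mean to the peak on the log2 scale. In CON 0 of 9 genes were called, while edgeR called 14.6% of all tested genes there. Cacnb2 had the smallest p of the 9 in CON, with an amplitude of 0.12 ± 0.042 (SE, edgeR adjusted p = 0.0908), and it was the only 1 of the 9 with an unadjusted p under 0.05 (DESeq2 called 0 as well, and limma with voom called 2). In CEK 2 of 9 were called, Cacnb2 and Pln, while 15.6% of all tested genes were.

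Cacnb2 rose and fell in CEK with an amplitude of 0.16 ± 0.042 (SE) around a fitted peak at ZT6.9 (edgeR adjusted p = 0.0122), a 1.26-fold change from trough to peak. Its mean was 74.2 ± 11.1 CPM at ZT9 and 56.9 ± 5.35 CPM at ZT15 (SD, n = 4 each), the highest and the lowest of its means in CEK. In CON the corresponding means were 70.7 ± 7.72 and 60.9 ± 7.68 CPM, and the fitted peak lay at ZT8.4. The call in CEK was also made over 61 libraries (edgeR adjusted p = 0.0220) and in 64 of 64 fits that left out 1 library, and ended when 8 levels of time replaced the cosine (adjusted p = 0.117).

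Pln in CEK had an amplitude of 0.096 ± 0.027 (SE) and a fitted peak at ZT9.2 (edgeR adjusted p = 0.0285). Its mean was 6623 ± 641 CPM at ZT9 and 5419 ± 293 CPM at ZT18 (SD, n = 4 each), the highest and the lowest of its means in CEK. In CON the means at these times were 6080 ± 658 and 5856 ± 263 CPM. Over 61 libraries the amplitude of Pln in CEK was 0.087 with an edgeR adjusted p of 0.0582, which ends the call.

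The rhythms of the genotypes were not shown to differ. The test of the difference gave an adjusted p of 1.00 for each of the 9 genes, with the smallest unadjusted p at 0.0551 (Pln), and called 0.00609% of all tested genes. A call in CEK beside none in CON does not show a difference. The median amplitude of the 9 genes was 0.069 in CON and 0.096 in CEK, against 0.12 in both over all tested genes.

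**Figure D3:**
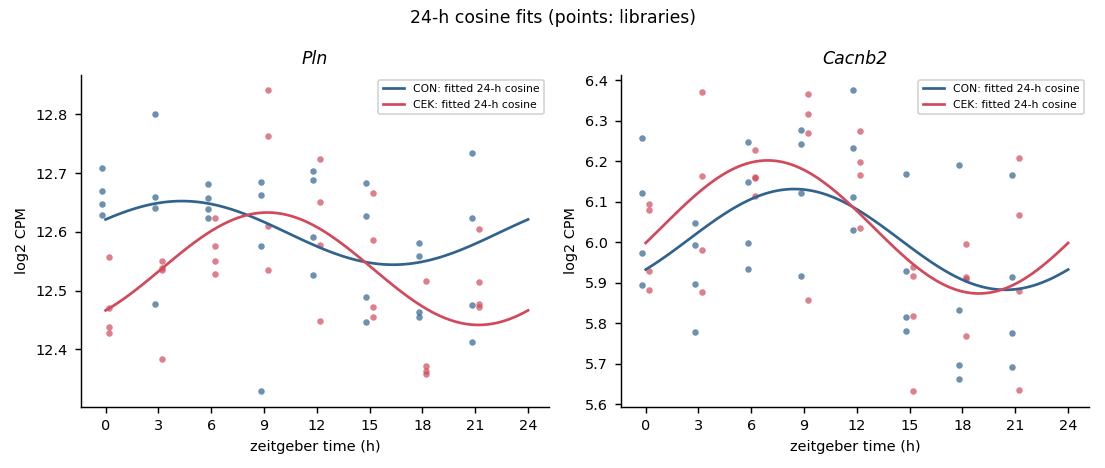
Log2 CPM of Pln and Cacnb2 (vertical axes) against zeitgeber time in hours (horizontal axes). Points are libraries of CON (blue) and CEK (red) and curves are the fitted 24-h cosines. Amplitudes were 0.096 (Pln) and 0.16 (Cacnb2) in CEK and 0.054 and 0.12 in CON.

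E4BP4 binds the D-box, so the promoters of the 9 genes were searched for it. RefSeq promoter windows (GRCm38.p6) were at hand for 7 of the 9 genes (not Atp2a2 and Trdn), as 10 windows, of which the 250 bases before the start were read on both strands. None held the D-box TTACGTAA or TTATGTAA, or the E-box CACGTG, which the clock activators bind. Over all 32851 windows the shares were 0.113%, 0.819% and 6.02%. With at most 1 mismatch to either D-box, 2 of the 10 windows held a match against 15.7% of all windows, which is near the background. They belong to Pln and to 1 of 2 windows of Cacnb2. The first 180 bases of these windows are given to show the match, in gene orientation, with the match in capitals. They end 71 bases before the RefSeq start and lie at chr10:53337436-53337615 (Pln, plus strand) and chr2:14823842-14824021 (Cacnb2, plus strand, an internal start of the gene).
Pln: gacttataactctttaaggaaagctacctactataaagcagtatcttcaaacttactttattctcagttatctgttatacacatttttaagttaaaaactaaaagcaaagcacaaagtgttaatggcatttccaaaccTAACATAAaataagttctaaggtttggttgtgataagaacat
Cacnb2: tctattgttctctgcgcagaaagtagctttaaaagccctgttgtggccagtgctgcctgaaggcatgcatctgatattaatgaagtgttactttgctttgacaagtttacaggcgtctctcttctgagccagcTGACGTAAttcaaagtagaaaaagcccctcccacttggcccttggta
The Pln match begins 112 bases and the Cacnb2 match 117 bases before the start. A match is a description of letters and was not tested for binding.

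The 9 genes differed in how much they varied over the libraries. The widest was Slc8a1, which ran from 8.06 to 133 CPM over the 64 libraries, a 16.5-fold range, and from 20.3 to 133 CPM over 61 libraries. Its SD was 57.6% of its mean. Pln was the steadiest, with a range of 5143 to 7343 CPM and an SD of 7.89% of its mean. Casq2 and Hrc were nearly as steady, at 9.62 and 9.72%.

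For 7 of the 9 genes, the level within a group was related to the balance between long and short transcripts in a library. A long-minus-short score was taken as the mean log2 CPM of 1346 tested protein-coding genes with more than 10000 bases of exon minus that of 1802 with fewer than 2000 bases, with the listed calcium and marker genes left out. It ran from 1.01 to 2.06 in 61 libraries and from 0.715 to 0.740 in the 3 that stood apart, and it was devised after the data were seen. Correlations were taken over the 61 libraries, after each group's mean was subtracted, for 9 genes with the score and 36 pairs of genes, 45 relations in one family.

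Slc8a1 followed the score most closely (Pearson's r = 0.967, Spearman's rho = 0.960, permutation p = 1e-05 each, adjusted p = 2.14e-05 and 2.05e-05, and r = 0.962 without the 2 farthest libraries). Ryr2 (r = 0.961, rho = 0.955), Cacna1c (r = 0.919, rho = 0.932), Atp2a2 (r = 0.864, rho = 0.867) and Cacnb2 (r = 0.813, rho = 0.835) did so as well, with the same permutation p, the smallest that 100000 permutations can give. Trdn went the other way (r = -0.771, rho = -0.805, permutation p = 1e-05 each), and so did Hrc (r = -0.547, rho = -0.545, permutation p = 0.00021 and 0.00018). Such relations were common: 44.2% of all tested genes had an r at least as large in size as that of Hrc. The median size of r was 0.481 over all tested genes and 0.813 over the 9. All tested genes include the 1346 long and 1802 short genes that make up the score, whereas the 9 were left out of it. Without the 2 farthest libraries r was between 0.799 and 0.959 for the 4 genes, -0.767 for Trdn and -0.551 for Hrc. Pln (r = 0.136, rho = 0.071, permutation p = 0.405 and 0.636) and Casq2 (r = -0.164, rho = -0.056, permutation p = 0.332 and 0.718) did not pass.

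Pairs of genes repeated this pattern. Slc8a1 and Ryr2 had r = 0.963 and rho = 0.958, Atp2a2 and Cacna1c had r = 0.936 and rho = 0.931, and Slc8a1 and Trdn had r = -0.798 and rho = -0.811 (permutation p = 1e-05 for each). Without the 2 farthest libraries these were 0.958, 0.923 and -0.782. In all, 21 of 36 pairs had an adjusted p under 0.05, and the share among pairs of all genes was not computed. The points share library, scaling and depth.

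**Figure D4:**
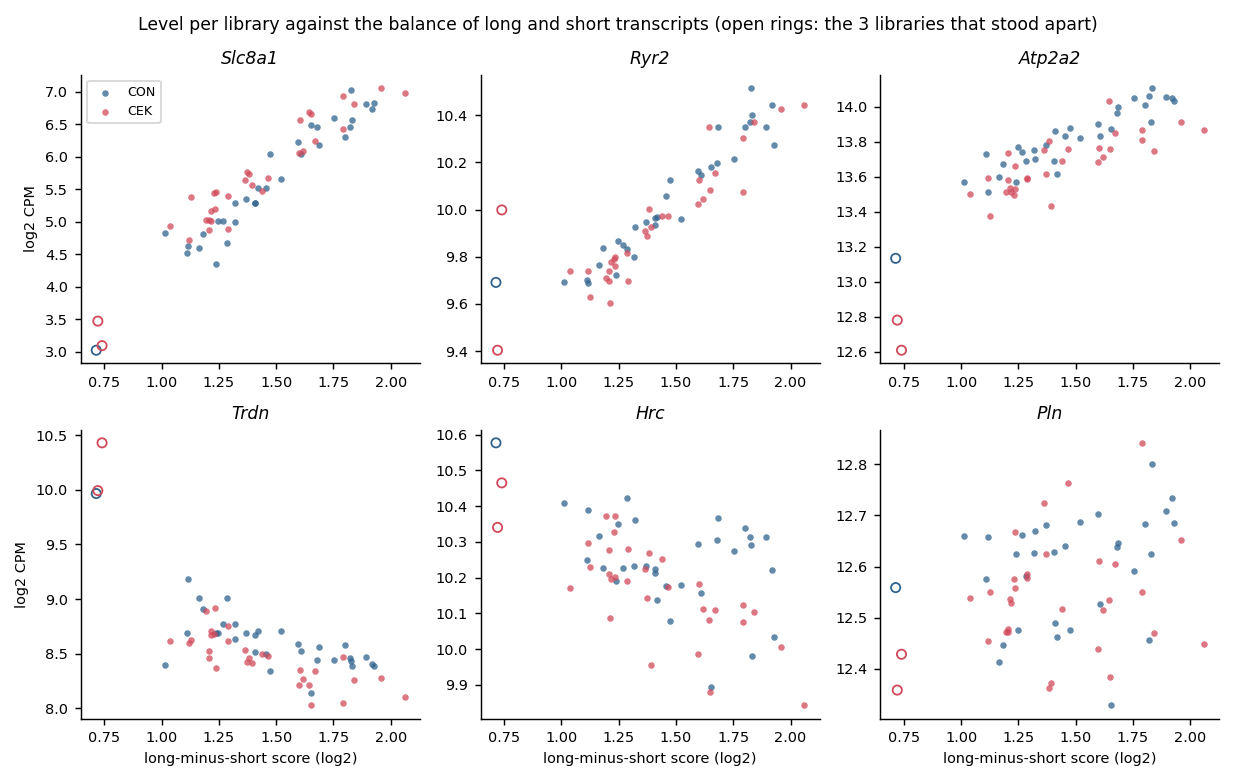
Log2 CPM of 6 genes (vertical axes) against the long-minus-short score (horizontal axes, log2) in 64 libraries of CON (blue) and CEK (red); open rings are the 3 libraries that stood apart. Slc8a1, Ryr2 and Atp2a2 climb with the score, Trdn and Hrc decline, and Pln shows no trend (r = 0.136 over 61 libraries).

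The genes most like each member were found over the 64 libraries. Pearson's r was taken over log2 CPM of tested genes whose mean was 1 or more on that scale, and it is a description without a test. Neither group means nor the long-minus-short score were taken out first, and their part in these values was not tested. For Slc8a1 they were Kidins220 (r = 0.975) and Alg10b (0.972), for Cacna1c Pde4dip (0.972) and Hcfc1 (0.948), and for Ryr2 Hif1an (0.922) and Setd5 (0.920). Trdn was most like Nfib (0.960) and Rtf1 (0.952), and Atp2a2 most like Pitrm1 (0.935) and Pmpca (0.933). Cacnb2 was most like Cdh2 (0.876) and Chd4 (0.856), and Hrc most like Sod2 (0.863) and Polr2m (0.837). Casq2 and Pln had weaker matches, Casq2 with Actc1 (0.777), the cardiac actin, and Lyrm7 (0.769), and Pln with Ldb3 (0.725), a Z-disc protein, and Klhdc1 (0.697). Over 61 libraries the values for Trdn were 0.893 and 0.849 and those for Atp2a2 0.863 and 0.842, while those of the other 7 genes ran from 0.699 (Pln with Klhdc1) to 0.966 (Cacna1c with Pde4dip).

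With the score as a covariate, also chosen after the data were seen, Slc8a1 changed most. Slc8a1 then had a log2 fold change of 0.22 ± 0.053 (SE, edgeR adjusted p = 0.00147), against -0.030 ± 0.21 without it. Atp2a2 kept its direction at -0.14 ± 0.032 (SE, edgeR adjusted p = 0.00110), and Hrc was called at -0.096 ± 0.026 (SE, edgeR adjusted p = 0.00478). These 3 of 9 stand against 21.1% of all tested genes called in that fit. Rhythms were called in 2 of 9 genes in CON (Slc8a1 and Cacnb2) and in 3 of 9 in CEK (these and Pln), with Slc8a1 amplitudes of 0.21 in CON and 0.20 in CEK (adjusted p = 0.00827 and 0.00701), where 25.3 and 24.3% of all tested genes were called. The score itself was 1.47 ± 0.299 in CON and 1.40 ± 0.314 in CEK (SD, n = 32 each, permutation test within times, p = 0.342, adjusted p = 0.555).

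Trdn was higher in the 3 libraries than in any other. There it had 1000 to 1379 CPM, against 261 to 582 CPM in the other 61, while Atp2a2 had 6241 to 8988 CPM against 10623 to 17689 CPM. Over 61 libraries the log2 fold change of Trdn was -0.16 ± 0.057 (SE, edgeR adjusted p = 0.0634), against -0.024 ± 0.11 with them. With the score as a covariate as well it was -0.19 ± 0.037 (SE, edgeR adjusted p = 9.16e-05).

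Beyond the 9, a list of 63 other genes of calcium handling was examined for the average genotype difference. Of these, 5 were higher and 9 lower in CEK (edgeR), against 6.69 and 5.30% of all tested genes, and their median log2 fold change was -0.035. The 14 called genes are spread over the lists of pump regulators, junction partners, channels, store-operated entry, membrane pumps and mitochondrial uptake. Like the 9, this list was made with earlier results of these data known.

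Among 8 regulators of SERCA and phospholamban 0 were higher and 2 lower. Strit1 encodes DWORF, a small peptide that displaces phospholamban from the pump, and had 14 ± 7.05 CPM in CON and 8.19 ± 3.80 CPM in CEK (SD, n = 32 each). It fell by 0.75 ± 0.17 (log2, SE, edgeR adjusted p = 0.00113), lower at 8 of 8 times, and passed in each alternative fit listed and with each library left out. Sln encodes sarcolipin, an inhibitor of the pump found mainly in atria, and fell by 1.00 ± 0.33 (log2, SE, edgeR adjusted p = 0.0370) from 111 ± 96.7 CPM in CON to 58.2 ± 46.6 CPM in CEK. With the replicate number as a block it had -0.82 ± 0.31 (SE, edgeR adjusted p = 0.0721), which ends the call. Of the 6 atrial markers 5 were lower in CEK as well (median log2 fold change -0.84). Their score did not pass (log2 difference -0.514, permutation test within times, p = 0.0788, adjusted p = 0.228). With the atrial score as a covariate Sln had -0.059 ± 0.17 (SE, adjusted p = 0.897). In the same fit Atp2a2 had -0.18 ± 0.064 (SE, adjusted p = 0.0498) and was called. Sln is itself found mainly in atria, so this fit cannot say why it was lower. The part of atrial content in either result was not tested.

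Of 17 partners of the ryanodine receptor 1 was higher and 3 lower. Jph2 encodes junctophilin, which ties the cell membrane to the store, and fell by 0.16 ± 0.029 (log2, SE, edgeR adjusted p = 4.55e-05) from 524 ± 40 CPM in CON to 469 ± 35.2 CPM in CEK. Its relative Jph1 fell by 0.21 ± 0.052 and Ryr3, a ryanodine receptor isoform, by 0.57 ± 0.15 (log2, SE). The level of Ryr3 was low, at 2.01 ± 0.867 CPM in CON and 1.37 ± 0.509 CPM in CEK (SD, n = 32 each). Ryr1, the isoform of skeletal muscle, rose by 0.62 ± 0.16 (log2, SE, edgeR adjusted p = 0.00342), but at 0.351 ± 0.196 CPM in CON and 0.521 ± 0.170 CPM in CEK, with 779 counts over all libraries. Ryr3, with 3046 counts over all libraries, shares exon bases with Aven on the other strand, which had 28764. Whether counting used strand is not known here.

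Of 9 genes of mitochondrial calcium transport 2 were higher and 2 lower. Mcu, the pore of the mitochondrial calcium uniporter, fell by 0.17 ± 0.025 (log2, SE, edgeR adjusted p = 1.94e-06) from 20.2 ± 1.79 CPM in CON to 18 ± 1.52 CPM in CEK (SD, n = 32 each). Mcub, its dominant-negative relative, rose by 0.27 ± 0.079 (log2, SE, edgeR adjusted p = 0.0175) from 2.02 ± 0.513 to 2.40 ± 0.499 CPM. Micu2 and Micu3, gatekeepers of the pore, had -0.087 ± 0.027 and 0.14 ± 0.039 (log2, SE, edgeR adjusted p = 0.0229 and 0.0129).

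The remaining lists held few calls. Of 8 genes of IP3 receptors and store-operated entry, the store sensor Stim1 fell by 0.12 ± 0.035 and the entry channel Orai1 rose by 0.19 ± 0.045 (log2, SE, edgeR adjusted p = 0.0157 and 0.00225). Of 11 other calcium channel genes, the beta subunit Cacnb1 rose by 0.19 ± 0.041 (log2, SE, edgeR adjusted p = 0.000659). Of 10 membrane pumps and exchangers, Atp2b3 fell by 0.70 ± 0.21 (log2, SE, edgeR adjusted p = 0.0151) at 0.334 ± 0.167 CPM in CON, a very low level. The part of the macrophage and endothelial markers in these results was not tested.

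**Figure D5:**
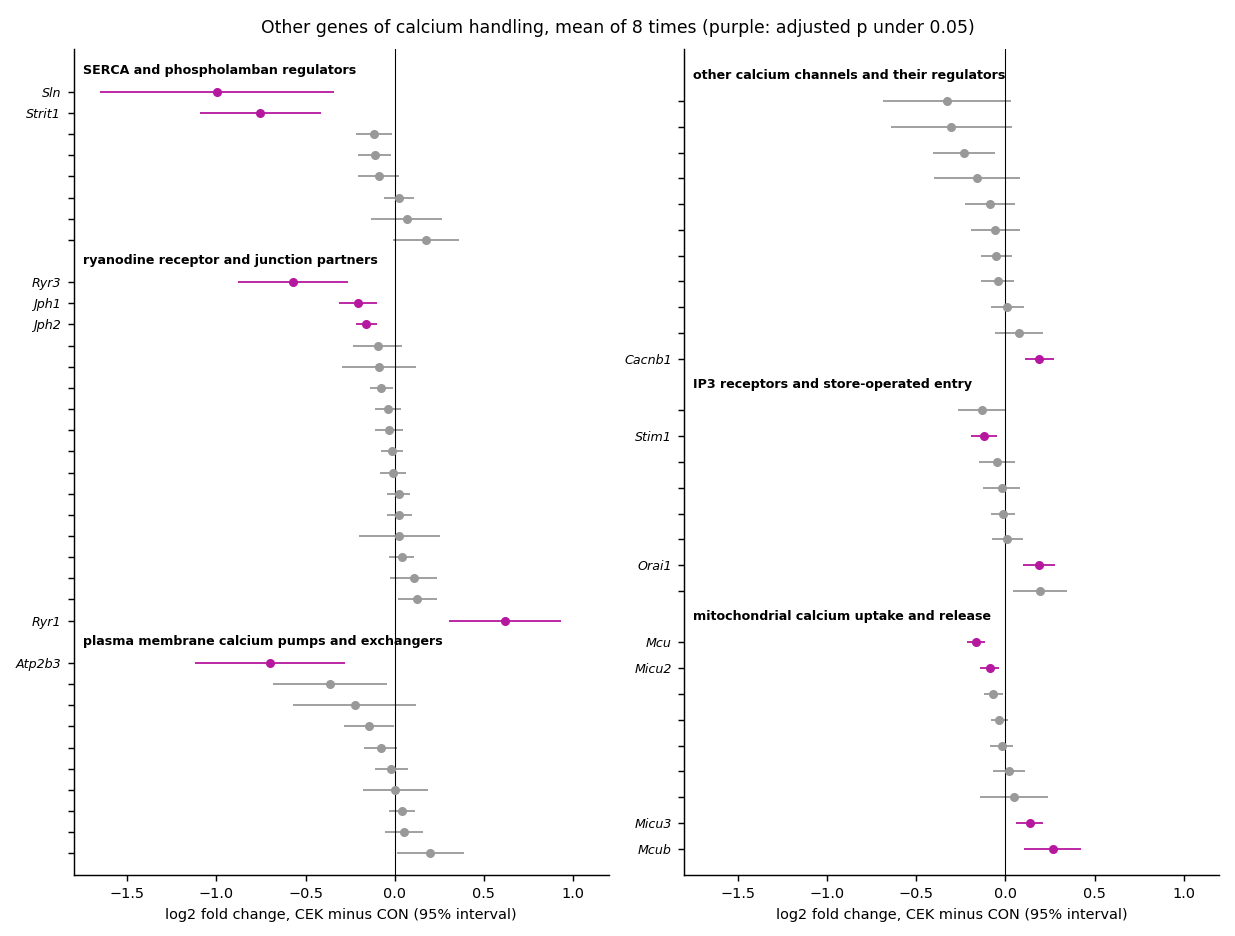
Log2 fold change of CEK minus CON averaged over 8 times (horizontal axes) with 95% intervals for 63 other genes of calcium handling, grouped by list (vertical axes). Purple points, 14 in number and labelled by gene, had an edgeR adjusted p under 0.05, and grey points did not. Among the wide intervals are those of Sln, Strit1, Cacna1h, Cacna2d2 and genes of low level such as Atp2b3.

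Rhythms were called in 8 of the 63 other genes in CON and in 10 in CEK, near the 14.6 and 15.6% of all tested genes, and in 0 for the difference. Rrad encodes Rad, a small GTPase that holds back the L-type channel, and had an amplitude of 0.40 ± 0.083 with a fitted peak at ZT0.25 in CON and of 0.28 ± 0.083 with a peak at ZT1.0 in CEK (log2, SE, edgeR adjusted p = 0.00257 and 0.0446). Pde3a, a phosphodiesterase near the pump, had amplitudes of 0.31 ± 0.056 in CON and 0.24 ± 0.056 in CEK (SE, edgeR adjusted p = 0.00017 and 0.0067). Asph, the gene of junctin and junctate, had 0.13 ± 0.031 in CON and 0.18 ± 0.031 in CEK (SE, edgeR adjusted p = 0.00751 and 9.94e-05).

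Further genes were called in both genotypes or in 1. Itpr3, an IP3 receptor, had amplitudes of 0.26 in CON and 0.29 in CEK with peaks at ZT9.8 and ZT9.0, and Mcu had 0.10 in both (adjusted p = 0.0177 and 0.0163). Atp2a3, Cacnb3 and Slc8a3 were called in CON (adjusted p = 0.0421, 0.0167 and 0.0440). Of these, Slc8a3 had only 0.283 ± 0.152 CPM in CON (SD, n = 32), a very low level. Calr, Cacna1g, Gem, Orai2 and Micu2 were called in CEK (adjusted p = 0.0462, 0.0335, 0.0390, 0.000331 and 0.0184). The test of the difference called none of these genes. Other genes that the naming rule picks for rhythm missed the threshold, among them Ryr1 (0.50 in CON, adjusted p = 0.0588), Itpr2 (0.15 in CON, adjusted p = 0.0867), Slc8a2 (0.15 in CON, adjusted p = 0.531) and Tmem38a (0.082 in CEK, adjusted p = 0.144), with Slc8a3 at 0.40 in CEK (adjusted p = 0.210). These are amplitudes on the log2 scale by edgeR.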

How the data were processed

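The authors deposited raw counts, whole reads per gene in 64 libraries. The submitters' processing notes name bcl2fastq 2.18.0.12, STAR 2.6.1d, HTSeq 0.11.1 and GRCm38, but neither the annotation release nor the strand setting. Without strand, reads of a gene and of an antisense partner cannot be told apart. This touches Pln, whose exons overlap Gm47644 (1644 bases) and Cep85l (141 bases) on the other strand, and in smaller measure Atp2a2, Slc8a1 and Cacnb2. The 5 summary rows of the counter were left out of library sizes.

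Gene names came from GENCODE M21, which holds 48435 of the 48795 IDs. Fits used R 4.3.3 with edgeR 4.0.16: filterByExpr (minimum count 10, minimum total 15), TMM scaling, and quasi-likelihood tests of 16 group means (48 residual degrees of freedom) or of cosine and sine terms (58). P-values were adjusted by Benjamini-Hochberg over all 16417 tested genes, with a threshold of 0.05. Log2 CPM used a prior count of 2. The labels call the replicates biological; p-values measure the spread between these samples. Of 96 library pairs of the same group, the closest differed by 4.63 times sampling noise, so none was counted as a copy.

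The 9 genes and all lists were chosen with earlier results of these data known. Other genes are named by rule: those called in the average difference, in each list the 2 with the smallest rhythm p in each genotype, and the 2 most like each of the 9; some genes picked this way are not reported here. Library measures were compared by permuting genotype within times, and correlations by permuting libraries within groups (100000 permutations, two-sided; 13 measures and 45 relations). Promoter sequences are from RefSeq (GRCm38.p6). Alternatives were DESeq2 1.42.0, limma 3.58.1 with voom and quality weights, RLE scaling, other filters, a replicate block, covariates (atrial score, mitochondrial share, label number and, chosen after the data were seen, the long-minus-short score), subsets of libraries and each library left out.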

Additional observations from a re-analysis of the deposited data

Results flagged for a closer look

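Of 160 groups of 4 libraries, 12 held a library farther from the other 3 than Dixon's critical value of 0.829 allows, and chance alone gives about 1 in 20. Of these, 4 come from libraries that lay apart on the first principal component. In replicate 4 of CEK at ZT0 Trdn was 1379 CPM (others 297 to 331). In replicate 1 of CEK at ZT18 Trdn was 1019 CPM (others 342 to 362), Ryr2 677 CPM (others 974 to 1026) and the long-minus-short score 0.722 (others 1.38 to 1.44). In replicate 1 of CON at ZT21 the score was 1.92 (others 1.16 to 1.25), Slc8a1 106 CPM (others 20.3 to 32.2) and Ryr2 1394 CPM (others 845 to 935). Casq2 was 612 CPM in replicate 2 of CON at ZT3 (others 926 to 988). Pln was 5345 CPM in replicate 2 of CEK at ZT3 (others 5934 to 5997) and 5858 CPM in replicate 4 of CEK at ZT18 (others 5251 to 5299). Hrc was 1295 CPM in replicate 1 of CON at ZT15 (others 1196 to 1202). Atp2a2 was 12943 CPM in replicate 1 of CEK at ZT15 (others 12251 to 12363).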

How the results depend on the processing

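Of the 9 genes, 1 was called in the average difference; this became 0 without a filter on low counts, 2 with the label number as covariate, 3 with the long-minus-short score, 4 with the score over 61 libraries, 4 with voom, and 0 to 2 with 1 library left out. Among all genes the 1968 calls became 3467 with the score and 3987 with the score over 61 libraries. The CON rhythm, with 0 of the 9 called, gave 2 with the score, 2 with the score over 61 libraries, 2 with voom (Cacnb2 and Slc8a1, adjusted p = 0.00247 and 0.0451) and 0 to 1 with 1 library left out; among all genes 2393 became 4154, 4996 and 4419 in these fits and 1269 with 8 levels of time. The CEK rhythm, with 2 of the 9 called, gave 0 with 8 levels of time, 1 each with the mitochondrial share, with no filter, with the CEK libraries alone and over 61 libraries, and 1 to 2 with 1 library left out; among all genes 2560 became 3988 and 4576 with the score, 3911 with voom and 1378 with 8 levels. Among all genes the interaction (1 call) gave 47 with voom and 1 to 2 with 1 library left out; the rhythm difference (1 call) gave 10 without a filter, 2 with the score, 2 with the score over 61 libraries, 2 with voom and 1 to 2 with 1 library left out. Calls at single times (498) became 758 with DESeq2, 78 with the libraries of each time alone, 1360 and 1632 with the score, 313 without a filter and 2153 with voom. None of the 72 tests of the 9 genes at single times was called in any of these settings. The cause of these shifts was not tested.

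Slc8a1 changed sign, from -0.030 to 0.012 with the mitochondrial share, 0.014 over 61 libraries, 0.22 with the score, 0.22 with the score over 61 libraries, 0.18 with voom, and -0.098 to 0.076 with 1 library left out. Trdn ran from -0.14 to 0.027 with 1 library left out. Atp2a2 lost its call without a filter and on leaving out any of 18 libraries, with adjusted p up to 0.0710; these were, in CON, replicates 1 and 3 at ZT0, 2 at ZT3, 3 and 4 at ZT6, 4 at ZT9, 2 at ZT12, 1 at ZT15, 2 at ZT18 and 1 at ZT21, and in CEK, 1 and 4 at ZT3, 1 and 2 at ZT6, 2 at ZT9, 3 at ZT12, 1 at ZT18 and 1 at ZT21. The CEK rhythm of Pln lost its call without replicate 3 or 4 at ZT9 or replicate 4 at ZT12 (highest adjusted p = 0.0971). Casq2 gained a call without replicate 3 of CEK at ZT3 (adjusted p = 0.0305).

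Replicate numbers were not taken as pairs in the main fits. Within a time, the correlation of deviations of same-numbered libraries ran from -0.43 to 0.52 and was over 0.1 in 20 of 32 pairs. Between all groups its mean was 0.019 for the same number and -0.0047 for different numbers. Whether the numbers mark shared handling was not tested. With the replicate block, calls over all genes were 1980 for the average difference, and Atp2a2 had -0.18 (adjusted p = 0.0411). The block changed the call of 1 named gene, Sln (-0.82, adjusted p = 0.0721).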
